A study of Homo sapiens with 8 samples.

Results

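The AP-1 transcription factor genes FOS, FOSB, FOSL1, FOSL2, JUN, JUNB, JUND, BATF and ATF3 were followed across 4 treatments of HL-60 cells. They were chosen by symbol, each symbol matched 1 row of the deposited table, and the 9 rows stand among 60240 genes. HL-60 is a human promyelocytic leukaemia cell line, labelled wild type in all 4 groups. Cells were seeded in wells in duplicate and given the solvent DMSO, decitabine, RG3039 or both drugs (the combination), with 2 libraries a group and 8 in all. Decitabine, a deoxycytidine analogue that inhibits DNA methyltransferases, was added at 100 nM on day 0 and on the following 2 days. RG3039, an inhibitor of the decapping scavenger enzyme DcpS, was added once at 2 µM, and RNA was taken at 72 h. The labels do not say that the 2 libraries of a group came from independent cultures, so p-values measure only the spread between these libraries. The model is 1 cell line at 1 time and 1 dose of each drug.

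AP-1 is a family of dimers of basic leucine zipper (bZIP) proteins. JUN proteins pair with each other or with FOS proteins, FOS proteins need a JUN partner, and ATF3 and BATF join JUN proteins to form further dimers. FOS, FOSB, JUN, JUNB and ATF3 are immediate-early genes, switched on within minutes of growth factor, cytokine or stress signals that run through MAP kinases. In myeloid cells AP-1 is known for its part in monocyte and macrophage differentiation.

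Estimated depth ran from 20712000 to 40948300 reads a library, and 17534 genes with a mean normalised read count of at least 10 were tested. All 9 AP-1 genes passed that filter. The labelled cell type was checked on 8 promyelocytic markers, whose summed value was 91351 to 201549 in the 8 libraries. MPO alone stood between 69218 and 165580. Of 8 markers of other cells, HBB, KRT5 and CDH5 were listed at 0 in every library, and PECAM1, which myeloid cells also carry, gave most of the rest (565 to 3460).

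Promoter stretches are shown for the motifs they hold. They are those of JUN, FOS, FOSB and ATF3, which limma called in some comparison (adjusted p under 0.05). JUND, called in none, is shown beside them. AP-1 dimers bind TGACTCA, and dimers with ATF proteins bind TGACNTCA or the shorter TGACG. JUN is known to be induced through a TGACATCA element of its own promoter. RefSeq windows (GRCh38.p14) were found for 8 of the 9 genes, all but FOSL1, with 9 starts in all since ATF3 has 2. The 250 bases before the start are given 5′ to 3′ on the gene's own strand, with matches to TGACNTCA, TGACG or TGACTCA on either strand in capitals (TGACG lies within a TGACGTCA match).
JUN, chr1:58784048-58784297, minus strand: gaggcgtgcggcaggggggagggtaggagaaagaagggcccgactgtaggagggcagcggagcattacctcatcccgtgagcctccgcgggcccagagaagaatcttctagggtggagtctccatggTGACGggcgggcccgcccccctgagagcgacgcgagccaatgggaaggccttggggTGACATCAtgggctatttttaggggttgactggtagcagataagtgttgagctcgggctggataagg
FOS, chr14:75278578-75278827, plus strand: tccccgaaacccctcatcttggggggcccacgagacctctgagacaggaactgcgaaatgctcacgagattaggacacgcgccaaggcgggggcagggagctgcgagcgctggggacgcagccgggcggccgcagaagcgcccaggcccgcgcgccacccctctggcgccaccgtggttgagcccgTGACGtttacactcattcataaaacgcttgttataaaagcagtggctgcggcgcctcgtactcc
FOSB, chr19:45467746-45467995, plus strand: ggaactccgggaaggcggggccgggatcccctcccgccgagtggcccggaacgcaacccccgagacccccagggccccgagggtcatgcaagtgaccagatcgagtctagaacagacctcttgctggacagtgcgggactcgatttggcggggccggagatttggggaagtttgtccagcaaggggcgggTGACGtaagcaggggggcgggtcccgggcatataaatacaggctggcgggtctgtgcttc
ATF3, chr1:212565157-212565406, plus strand: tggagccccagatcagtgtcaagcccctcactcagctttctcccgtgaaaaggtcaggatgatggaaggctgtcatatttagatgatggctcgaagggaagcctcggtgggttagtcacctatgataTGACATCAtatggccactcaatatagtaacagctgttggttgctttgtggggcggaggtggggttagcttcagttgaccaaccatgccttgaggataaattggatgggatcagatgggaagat
JUND, chr19:18281623-18281872, minus strand: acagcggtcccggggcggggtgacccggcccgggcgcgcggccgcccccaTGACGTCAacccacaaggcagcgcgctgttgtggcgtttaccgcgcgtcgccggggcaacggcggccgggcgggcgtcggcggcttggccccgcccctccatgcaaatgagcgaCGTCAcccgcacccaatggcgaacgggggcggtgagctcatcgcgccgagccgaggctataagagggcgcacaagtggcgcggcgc

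In the JUN window TGACATCA lay 67 to 60 bases before the start, and in the ATF3 window shown 123 to 116 bases before it. The other ATF3 window (chr1:212614768-212615017) held no match to TGACNTCA, TGACG or TGACTCA and 0 CG dinucleotides. The BATF window held no match to these motifs either. The JUND window, shown as one of a gene that was not called in any comparison, held TGACGTCA 200 to 193 bases before the start. FOS and FOSB each held TGACG, at 64 to 60 and 60 to 56 bases before the start, and both held a TATAAA box downstream of it. JUNB, called in no comparison, held the same pair (TGACG at 137 to 133 and TATAAA at 31 to 26), and FOSL2, also not called, held TGACG on 1 strand or the other at 201 to 197 and 66 to 62. TGACNTCA was present in 6.87% of all 35116 RefSeq windows of this length, TGACG in 21.2%, TGACTCA in 4.20% and TATAAA in 10.7%. None of the 9 AP-1 windows held TGACTCA, nor a CArG box, the serum response factor motif found in 1.16% of all windows. Sites farther than 250 bases before the start were not searched, so these genes may carry such motifs outside the windows. CG dinucleotides, the sites that DNA methyltransferases modify, numbered 40 in the JUND window, 25 in FOS, 19 in FOSB, 14 in JUN and 4 in the ATF3 window shown, against a median of 11 over all windows. JUNB, FOSL2 and BATF, called in no comparison, had 27, 24 and 5.

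JUN was the AP-1 gene whose 4 groups were fully separate. JUN, the founding subunit of AP-1 (ENSG00000177606.7, chromosome 1, 58780788 to 58784327 on GRCh38, minus strand, 1 annotated transcript), had normalised read counts of 356 and 229 in DMSO and 403 and 430.25 with decitabine. It stood at 617 and 670.1 with RG3039 and at 1029.6 and 965 with the combination. Every library of a group lay above every library of the group before it, in the order DMSO, decitabine, RG3039, combination. Such full separation of the 4 groups, in any order, was seen in 7.4% of all tested genes, and in 4.41% DMSO was lowest, the combination highest and each single drug apart from both. JUN rose with RG3039 by 1.17 ± 0.23 on the scale of log2(value + 1), which is the scale of every log2 fold change here (± standard error from limma, adjusted p = 0.0152). With the combination it rose by 1.80 ± 0.23 (adjusted p = 0.000698), a fold of 3.48, and was higher than with decitabine alone by 1.26 ± 0.23 (adjusted p = 0.0130). Decitabine alone gave 0.54 ± 0.23 (adjusted p = 0.259), and the combination against RG3039 gave 0.63 ± 0.23 (adjusted p = 0.188), so neither passed. In bulk RNA, more cells with the transcript and more transcript per cell cannot be told apart.

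The rise of JUN with the combination kept its call in each of 17 other settings, with log2 fold changes of 1.48 to 2.11. The RG3039 call was lost at adjusted p = 0.0719 with DMSO replicate 2 left out, 0.0714 with RG3039 replicate 1 left out, 0.0988 with RG3039 replicate 2 left out, 0.0642 with no mean-variance trend fitted and 0.0920 when other groups were left out of the model. The call against decitabine was lost at adjusted p = 0.0782 with decitabine replicate 1 left out, 0.0542 with decitabine replicate 2 left out, 0.100 with combination replicate 1 left out, 0.0789 with combination replicate 2 left out and 0.0631 with no trend. JUN values rested on 152 to 1375 reads a library.

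JUNB and JUND were called in no comparison. JUNB, a JUN relative known to restrain JUN activity (ENSG00000171223.6, chromosome 19, 12791496 to 12793315), had values of 1752 and 1834 under DMSO, 1659.8 and 1439 under decitabine, 2600.02 and 1957 under RG3039 and 1609 and 2009.9 under both drugs. The DMSO libraries lay inside the range of the combination libraries. Its change was -0.21 ± 0.19 for decitabine, 0.33 ± 0.19 for RG3039 and 0.00 ± 0.19 for both drugs, the last with a 95% interval of -0.42 to 0.42 (adjusted p = 0.589, 0.330 and 0.991). JUND, a broadly expressed member (ENSG00000130522.6, chromosome 19, 18279760 to 18281622, minus strand), had values of 1888 and 2063 under DMSO, 1709.7 and 1746 under decitabine, 2083 and 2165 under RG3039 and 2128 and 2194 under both drugs. Both decitabine libraries were the lowest of the 8, and the RG3039 and combination libraries overlapped. The change of JUND was -0.19 ± 0.14, 0.11 ± 0.14 and 0.13 ± 0.14 with decitabine, RG3039 and the combination (adjusted p = 0.503, 0.704 and 0.545), with an interval of -0.18 to 0.44 for the combination. JUNB overlaps HOOK2 on the other strand, and with the strand setting of the counting not given, reads of the pair cannot be told apart.

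The balance within the JUN subfamily was taken as a ratio inside each library, which no scaling between libraries can change. The value of JUN divided by that of JUNB in the same library was 0.203 and 0.125 under DMSO, 0.243 and 0.299 under decitabine, 0.237 and 0.342 under RG3039 and 0.640 and 0.480 under both drugs. Both combination libraries were above the other 6, and both DMSO libraries below them. JUN divided by JUND was 0.188 and 0.111 under DMSO, 0.236 and 0.246 under decitabine, 0.296 and 0.309 under RG3039 and 0.484 and 0.440 under both drugs. Here the 4 groups followed each other without overlap, as for JUN itself. These ratios are given without a test, and their size does not compare the abundance of the transcripts.

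**Figure D1:**
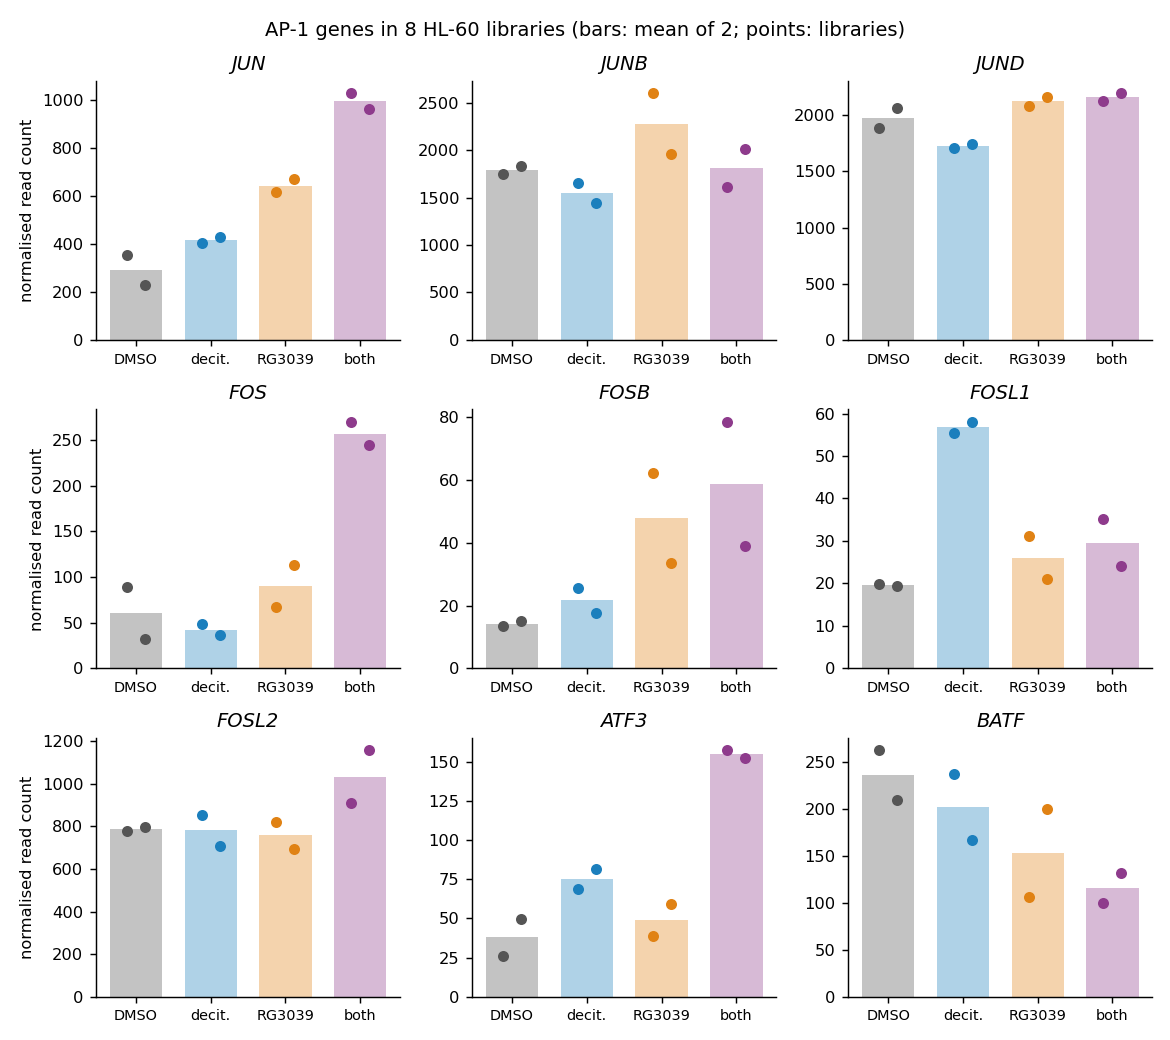
Normalised read counts (vertical axes, each from 0) of the 9 AP-1 genes in the 4 treatment groups; points are the 2 libraries of a group and bars their mean ("decit." is decitabine, "both" the combination). JUN steps up from 293 in DMSO to 997 with both drugs, FOS and ATF3 are highest with both drugs, FOSL1 is highest with decitabine, and JUNB and JUND have group means of 1549.6 to 2278 and 1728 to 2161.

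FOS rose with the combination and passed with neither single drug. FOS, the founding partner of JUN (ENSG00000170345.10, chromosome 14, 75278774 to 75282230), had values of 89.6 and 31.6 under DMSO, 48.2 and 36.3 under decitabine, 67.2 and 113 under RG3039 and 270.2 and 245 under both drugs. Both combination libraries were over 2 times the highest of the other 6. The DMSO libraries overlapped those of each single drug, and the decitabine libraries lay below the RG3039 libraries. Against DMSO the combination raised FOS by 2.25 ± 0.50 (adjusted p = 0.0105), and against decitabine by 2.59 ± 0.50 (adjusted p = 0.0163). Against RG3039 the difference was 1.55 ± 0.50 and did not pass (adjusted p = 0.144). The single drugs gave -0.34 ± 0.50 and 0.70 ± 0.50 (adjusted p = 0.766 and 0.455). The DMSO libraries themselves lay far apart, and the call against DMSO was lost at adjusted p = 0.0607 with DMSO replicate 2 left out, where the change was 1.51. It was also lost at 0.0714 with combination replicate 1 left out and 0.0552 with combination replicate 2 left out. Against decitabine it was lost at adjusted p = 0.0672 with decitabine replicate 1 left out, 0.0835 with decitabine replicate 2 left out, 0.112 with combination replicate 1 left out, 0.0949 with combination replicate 2 left out and 0.0680 without the trend.

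FOSB was low in DMSO and higher in every library given RG3039. FOSB, a FOS relative (ENSG00000125740.14, chromosome 19, 45467995 to 45475179), had values of 13.5 and 15.0 under DMSO, 25.7 and 17.7 under decitabine, 62.2 and 33.4 under RG3039 and 78.6 and 39.1 under both drugs. The 4 libraries with RG3039 lay above the 4 without it, and within both groups with RG3039 replicate 1 was far above replicate 2. The share of all tested genes split this way was not counted. It rose with the combination by 1.89 ± 0.58 (adjusted p = 0.0405), while RG3039 alone gave 1.62 ± 0.58 (adjusted p = 0.128) and decitabine alone 0.56 ± 0.58 (adjusted p = 0.659). The call was lost in 8 of 17 settings. They were leaving out DMSO replicate 1 (adjusted p = 0.116), DMSO replicate 2 (0.107), RG3039 replicate 1 (0.0518), combination replicate 1 (0.260) or combination replicate 2 (0.0566), a minimum mean of 1 (0.0609), no filter (0.0893) and only the groups compared (0.0632). FOSB values rested on 9.92 to 94.4 read equivalents, so counting error is large, and the gene overlaps ERCC1 on the other strand.

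FOSL1 had its highest values under decitabine alone. FOSL1 (FRA-1, ENSG00000175592.9, chromosome 11, 65892049 to 65900573, minus strand), a FOS relative without the strong activation region of FOS, had values of 19.9 and 19.3 in DMSO and 55.4 and 58.0 with decitabine. It stood at 31.2 and 21.0 under RG3039 and 35.1 and 24.0 under both drugs. Both decitabine libraries were above the other 6, and the RG3039 and combination libraries overlapped. The change with decitabine was 1.48 ± 0.51 with an interval of 0.35 to 2.62, at an unadjusted p = 0.0156 and adjusted p = 0.164. With RG3039 and the combination it was 0.36 ± 0.51 and 0.54 ± 0.51 (adjusted p = 0.722 and 0.488), and the combination against decitabine gave -0.94 ± 0.51 (adjusted p = 0.310). No comparison of FOSL1 passed. Its values rested on 12.8 to 55.9 reads a library.

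FOSL2 (FRA-2, ENSG00000075426.12, chromosome 2, 28392448 to 28417312), the other FRA gene, had values of 779 and 795 under DMSO, 854 and 709.8 under decitabine, 819.6 and 695 under RG3039 and 909.7 and 1157 under both drugs. Both combination libraries were above the other 6, and the 3 remaining groups overlapped. The change with the combination was 0.38 ± 0.19, with an interval of -0.05 to 0.82 (adjusted p = 0.191). With decitabine it was -0.02 ± 0.19 and with RG3039 -0.06 ± 0.19 (adjusted p = 0.979 and 0.889). FOSL2 overlaps FLJ31356 on the other strand and the intronic AC104695.3 on its own strand.

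ATF3, a stress-induced factor that pairs with JUN proteins (ENSG00000162772.17, chromosome 1, 212565334 to 212620777), rose with the combination. Its values were 26.2 and 49.6 under DMSO, 69.0 and 81.6 under decitabine, 38.5 and 59.1 under RG3039 and 157 and 152 under both drugs. The decitabine libraries lay above all DMSO and RG3039 libraries, which overlapped, and the combination libraries lay above all 6. The rise with the combination was 2.07 ± 0.43 (adjusted p = 0.00746), lost only without combination replicate 1 among 17 settings (adjusted p = 0.0544). Against RG3039 the combination gave 1.68 ± 0.43 (adjusted p = 0.0766) and against decitabine 1.03 ± 0.43 (adjusted p = 0.185). Decitabine alone gave 1.04 ± 0.43 (adjusted p = 0.244) and RG3039 alone 0.39 ± 0.43 (adjusted p = 0.638).

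BATF had its lowest mean with the combination. BATF, which pairs with JUN proteins and lacks an activation domain (ENSG00000156127.8, chromosome 14, 75522425 to 75547015), had values of 262 and 209 under DMSO, 237 and 167 under decitabine, 106 and 199 under RG3039 and 99.4 and 131 under both drugs. Both combination libraries were below every DMSO and decitabine library, and the RG3039 libraries spanned the gap. The change with the combination was -1.03 ± 0.36 (interval -1.84 to -0.22, adjusted p = 0.0680), which did not pass. Without RG3039 replicate 1 the same change had an adjusted p of 0.0473. With decitabine and RG3039 the changes were -0.23 ± 0.36 and -0.68 ± 0.36 (adjusted p = 0.781 and 0.296).

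**Figure D2:**
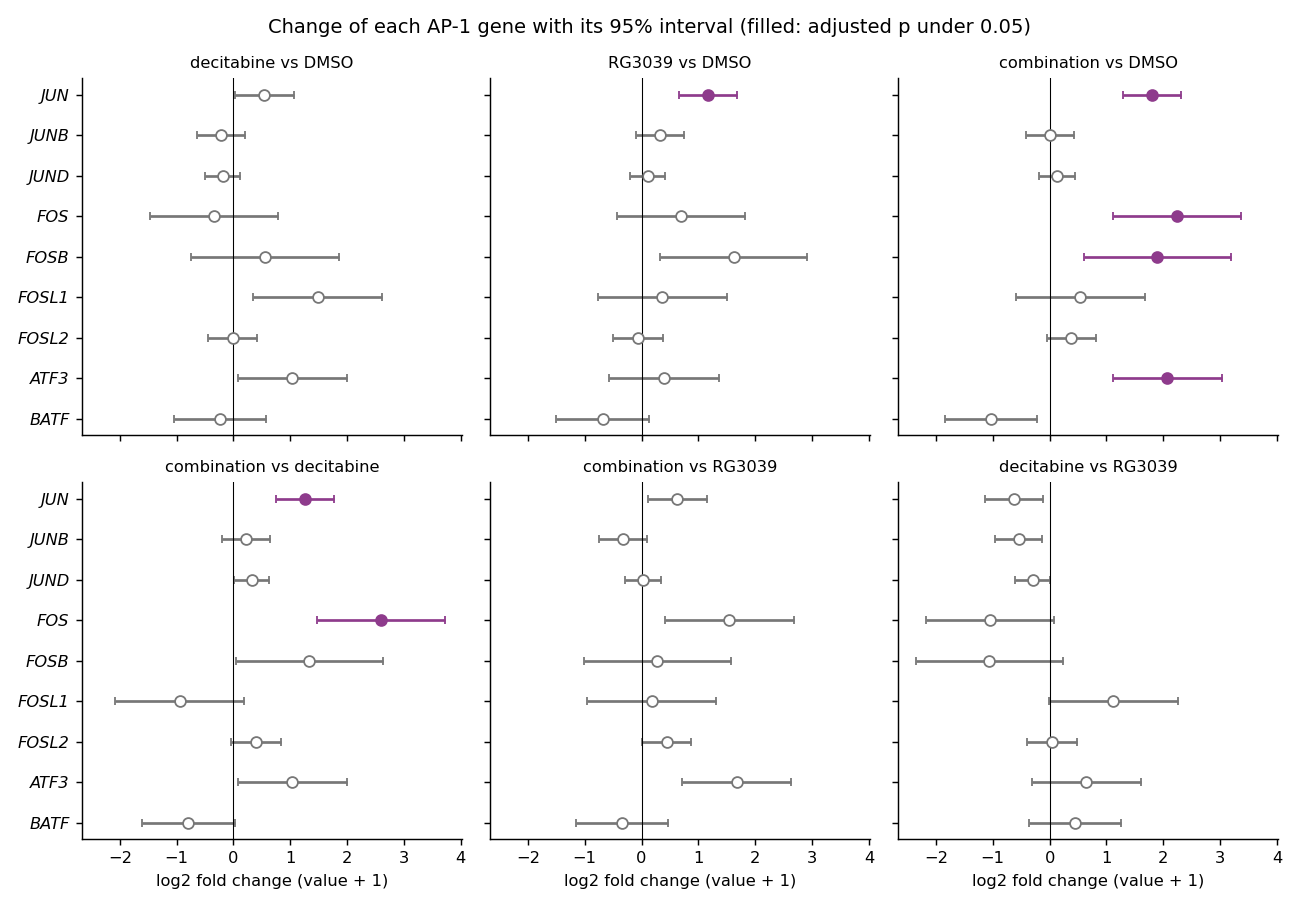
Log2 fold change of each AP-1 gene with its 95% interval from limma in 6 comparisons of 2 groups; filled points passed at an adjusted p under 0.05 over all tested genes. JUN passes in 3 panels, FOS in 2, and FOSB and ATF3 in 1, all of them to the right of 0, while JUNB and JUND lie close to 0 in the panels against DMSO.

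Counted by treatment, 0, 1 and 4 AP-1 genes were called for decitabine, RG3039 and both drugs. With decitabine against DMSO limma called 0 of 9 members, where 2.14% of all tested genes were called (1.74% higher and 0.405% lower). At an unadjusted p under 0.05 the members numbered 3 (JUN, FOSL1 and ATF3, all with positive changes), and the share of all genes was 17.9%. With RG3039 1 of 9 was called, JUN, against 8.12% of all genes (4.53% higher and 3.59% lower), and JUN and FOSB had an unadjusted p under 0.05 (22.8% of all genes). With the combination 4 of 9 were called higher (JUN, FOS, FOSB and ATF3) against 11.4% of all genes, and 0 of 9 lower against 12.7% (24.1% in either direction). BATF joined them at an unadjusted p under 0.05, with 36.2% of all genes. The number called was 1 to 4 when each library was left out, with 1 (JUN) left without combination replicate 1, and 2 without DMSO replicate 2 or combination replicate 2. The median change over the 9 members was -0.02, 0.36 and 0.54 for decitabine, RG3039 and both drugs, beside 0.01, 0.00 and 0.04 over all tested genes. These comparisons share the DMSO libraries, and the members were chosen with earlier results of these data known, so the shares are descriptive.

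Adding RG3039 to decitabine left 2 of 9 members higher, JUN and FOS, where 7.33% of all genes were called (3.94% higher and 3.39% lower). At an unadjusted p under 0.05 the members numbered 5, and the share of all genes was 22.9%. The number of calls was 0 with no trend, or without either decitabine library or either combination library. Adding decitabine to RG3039 gave 0 of 9 calls by limma, where 2.28% of all genes were called (1.49% higher and 0.787% lower), and 4 of 9 at an unadjusted p under 0.05 (JUN, FOS, FOSL2 and ATF3), where the share of all genes was 17.8%. Decitabine against RG3039 also gave 0 of 9 calls, with 4.6% of all genes called (2.67% higher and 1.92% lower), and 2 members at an unadjusted p under 0.05 (18.8% of all genes). Those were JUN (-0.63 ± 0.23) and JUNB (-0.55 ± 0.19), both lower with decitabine and at adjusted p = 0.175 and 0.145. Both combination libraries lay above all 6 other libraries for 4 of the 9 members, JUN, FOS, FOSL2 and ATF3, a pattern seen in 11.5% of all tested genes. Shares were not counted for other separations, such as those of the decitabine libraries of FOSL1 (highest) and JUND (lowest).

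The design also allows a test of whether the combination departs from the sum of the single changes. For JUN the sum of the single changes was 1.71 and the combination gave 1.80, a departure of 0.09 ± 0.33 with an interval of -0.64 to 0.82. For FOS the sum was 0.36 and the combination gave 2.25, a departure of 1.89 ± 0.71 (interval 0.30 to 3.48, unadjusted p = 0.0248, adjusted p = 0.854). For FOSL1 the combination fell short of the sum, with a departure of -1.31 ± 0.71 (interval -2.91 to 0.30, adjusted p = 0.880). The departures of FOSB, ATF3 and BATF were -0.28 ± 0.82, 0.64 ± 0.60 and -0.11 ± 0.51. limma called 0 of the 9 members and 0 of all genes (0.0%) for this interaction, with 1 member and 5.78% of all genes at an unadjusted p under 0.05. The intervals are wide enough to hold a departure of more than 2-fold for FOS, FOSB, FOSL1, FOSL2, ATF3 and BATF.

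**Figure D3:**
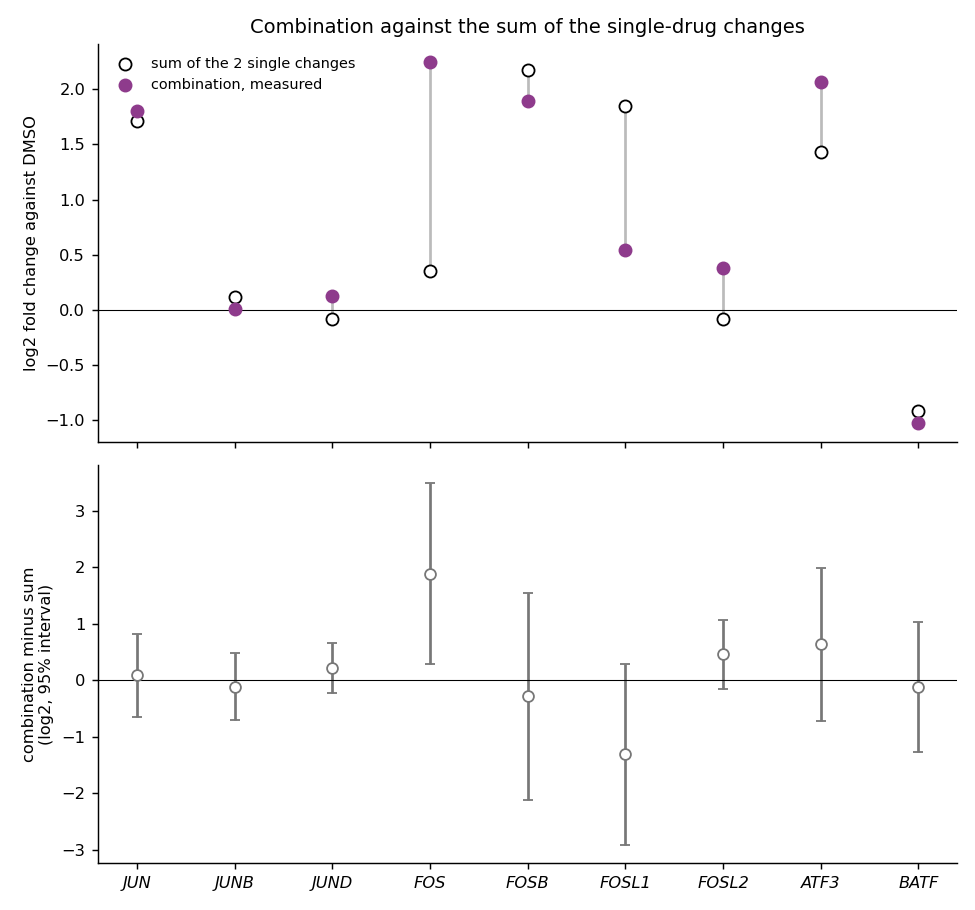
Upper panel, change against DMSO on the log2 scale with both drugs (filled) and the sum of the 2 single-drug changes (open) for each AP-1 gene; lower panel, the difference of the 2 with its 95% interval. FOS (1.89) and FOSL1 (-1.31) lie farthest from 0 in the lower panel and JUN (0.09) close to it, and no difference passed after adjustment.

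Genes around AP-1 were taken from lists that hold the pathway's other parts. These lists were chosen with earlier results of these data known, so shares set beside all tested genes are descriptive. Among the related bZIP genes, which supply dimer partners and competitors, 23 of 25 were tested. Decitabine had 4 of them called higher and 0 lower, RG3039 5 and 1, and both drugs together 7 and 3, with medians of 0.12, 0.06 and 0.32. The shares called higher were 17.4%, 21.7% and 30.4%, beside 1.74%, 4.53% and 11.4% of all tested genes. The share called lower with both drugs, 13.0%, was close to the 12.7% of all tested genes. CEBPA, a factor of granulocyte commitment, fell with RG3039 (-0.93 ± 0.12, adjusted p = 0.00190) and with the combination (-1.28 ± 0.12, adjusted p = 0.000157). ATF5 rose in the same 2 comparisons (1.00 ± 0.14 and 1.07 ± 0.14, adjusted p = 0.00259 and 0.000660). With decitabine CREB5, CEBPE and ATF5 were called (2.10, 1.04 and 0.85), and each lost the call without at least 1 library, with adjusted p up to 0.121. The number called with RG3039 was 3 without RG3039 replicate 2. CEBPG and MAFK were the others called lower with the combination (-0.58 and -0.55). The CEBPG call was lost whichever library was left out. The MAFK call was lost without DMSO replicate 2, either RG3039 library or either combination library.

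Kinases and ternary complex factors that act upstream of AP-1 were all tested (34). With decitabine limma called 0, beside 2.14% of all tested genes, and 4 had an unadjusted p under 0.05, beside 17.9% of all. With RG3039 2 were called higher and 1 lower, and with the combination 5 higher and 3 lower. The medians for decitabine, RG3039 and the combination were 0.00, 0.09 and 0.11. The shares with the combination, 14.7% higher and 8.82% lower, were close to the 11.4% and 12.7% of all tested genes, and those with RG3039, 5.88% and 2.94%, to 4.53% and 3.59%. MAPKAPK2 and ELK4 were the genes higher with RG3039 and MAP2K6 the 1 lower (-3.03). Each of these RG3039 calls was lost without at least 1 library. MAPKAPK2, a kinase downstream of p38, rose with the combination (1.18 ± 0.17, adjusted p = 0.00118), and MEF2D, a factor that binds the JUN promoter, fell (-2.37 ± 0.26, adjusted p = 0.000296). MAP2K6 and MAP3K7 were the others called lower (-2.01 and -0.65), both lost without DMSO replicate 2 or either combination library. The 8 calls with the combination, 2 of which passed whichever library was left out, became 4 without DMSO replicate 2 and 3 without either combination library. Of 12 tested MAPK feedback inhibitors, which shut off the signal, 4 rose and 2 fell with the combination. These were 33.3% and 16.7% of the list, beside 11.4% and 12.7% of all tested genes. DUSP16, a phosphatase of JNK and p38, had values of 48.2 and 46.5 under DMSO, 135 and 99.7 under decitabine, 648 and 418 under RG3039 and 460.1 and 811 under both drugs. It rose with RG3039 (3.43 ± 0.34, adjusted p = 0.000786) and with the combination (3.66 ± 0.34, adjusted p = 0.000159). DUSP7 fell with the combination (-3.17 ± 0.52, adjusted p = 0.00242), as did DUSP2 (-1.08), whose call was lost without either DMSO or either combination library. With decitabine limma called 0 of the 12, and 4 had an unadjusted p under 0.05, beside 17.9% of all tested genes. With RG3039 2 were called higher (16.7%, beside 4.53% of all tested genes). Of these, DUSP4 lost its call without DMSO replicate 2 or either RG3039 library. Among 10 genes that act on JUN protein or repress its sites, DET1, part of the COP1 ubiquitin ligase that targets JUN, fell with the combination (-3.00 ± 0.59, adjusted p = 0.00598), as did COP1 (-0.65) and HDAC3 (-0.59). BACH1, a repressor at AP-1-like sites, rose (1.21 ± 0.23, adjusted p = 0.00535). The shares of this list were 10% higher and 30% lower, beside 11.4% and 12.7% of all tested genes. The 4 calls of this list with the combination became 2 without DMSO replicate 1 or either combination library.

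Other immediate-early genes that were called were all higher. Of 23 tested, decitabine had 2 called higher, RG3039 4 and both drugs together 13, and limma called 0 lower in each, with medians of 0.45, 0.57 and 1.02. As shares, 8.70%, 17.4% and 56.5% were called higher, beside 1.74%, 4.53% and 11.4% of all tested genes. Of all tested genes 0.405%, 3.59% and 12.7% were called lower. IER3 had values of 650 and 325 under DMSO, 2130.4 and 2289 under decitabine, 4606 and 4824 under RG3039 and 15136 and 13235 under both drugs (4.94 ± 0.27, adjusted p = 9.35e-06). EGR1 stood at 128 and 133 under DMSO, 267 and 198 under decitabine, 610.03 and 569 under RG3039 and 845 and 995 under both drugs (2.81 ± 0.23, adjusted p = 7.31e-05). For both genes the 4 groups were separate and in the order seen for JUN. NR4A3, a nuclear receptor gene, was at 0.757 and 0 under DMSO, 16.2 and 13.5 under decitabine, 9.42 and 6.37 under RG3039 and 71.2 and 92.8 under both drugs (adjusted p = 0.000824). The 13 calls became 6 without combination replicate 1 and 7 without combination replicate 2, and 6 of the 13 genes passed whichever of the 8 libraries was left out. With RG3039 the 4 calls became 2 without either RG3039 library or either combination library, and the 2 with decitabine became 1 or 0 in each of the 8 cases.

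Genes known as AP-1 targets were mostly called with the combination. Of 30 listed, 25 were tested, and decitabine had 5 called higher, RG3039 14 and both drugs together 17, with 0, 1 and 1 lower. The 1 lower with RG3039 was CD44 (-0.95), lost without DMSO replicate 1 or RG3039 replicate 1. The medians of the tested targets were 0.67, 1.16 and 2.00. As shares, 20%, 56% and 68% of them were called higher, beside 1.74%, 4.53% and 11.4% of all tested genes. Those called lower were 0%, 4% and 4%, beside 0.405%, 3.59% and 12.7% of all. MMP9, the gelatinase gene whose promoter is a classical AP-1 target, had values of 10.6 and 7.55 under DMSO, 76.9 and 102 under decitabine, 117 and 121 under RG3039 and 941 and 963 under both drugs (6.58 ± 0.33, adjusted p = 5.86e-06). CXCL8, which encodes interleukin-8, rose with RG3039 (1.95 ± 0.23, adjusted p = 0.00136) and with the combination (2.49 ± 0.23, adjusted p = 0.000154). PLAUR, the urokinase receptor gene, rose with RG3039 (2.34 ± 0.31, adjusted p = 0.00232) and with the combination (2.23 ± 0.31, adjusted p = 0.00107). Its ligand gene PLAU was the 1 called lower with the combination (-3.75 ± 1.03, adjusted p = 0.0270), named here after its values were seen, and lost that call without DMSO replicate 1, DMSO replicate 2 or combination replicate 1. The 15 calls with RG3039 became 7 without RG3039 replicate 1 and 9 without RG3039 replicate 2, and the 5 with decitabine ran from 2 to 5. Several listed genes, such as ITGAX, CD14, CD68, LGALS3 and ITGAM, are also markers of mature myeloid cells. With the combination ITGAX, CD14, CD68 and LGALS3 were called higher (3.05, 2.34, 2.00 and 3.29). With RG3039 the same genes were called higher (2.23, 1.67, 1.16 and 1.44), CD68 close to the threshold (adjusted p = 0.0444 by limma). ITGAM moved differently. ITGAM was at 85.8 and 108 under DMSO and 162 and 220 under decitabine. It stood at 57.3 and 68.7 under RG3039 (-0.61 ± 0.32, adjusted p = 0.292 by limma) and at 119 and 139 under both drugs. Over the same libraries the summed value of the 8 promyelocytic markers, none at 0, was 161296 and 198299 under DMSO, 161067 and 201549 under decitabine, 106746 and 123019 under RG3039 and 91351 and 102582 under both drugs. MPO made up most of this sum. MPO, ELANE, AZU1, PRTN3, CTSG and CD33 were each lower in both combination libraries than in either DMSO library. CTSG went from 4468 and 3016 under DMSO to 1285 and 1259 under both drugs, and PRTN3 from 8114 and 10059 to 4399 and 5553. The rest of the list, CEBPE and SPI1, did not move this way. CEBPE, also among the 8, went from 2368 and 2700.4 under DMSO to 6514 and 7476 under both drugs, and SPI1 was at 793 and 883 against 627 and 864. The sum of the 8 other-cell markers, 3 of them at 0, was 695 and 632 under DMSO, 667 and 932 under decitabine, 1700.3 and 1933 under RG3039 and 3231 and 3677 under both drugs, most of it PECAM1. The part of these shifts in the AP-1 values was not tested.

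**Figure D4:**
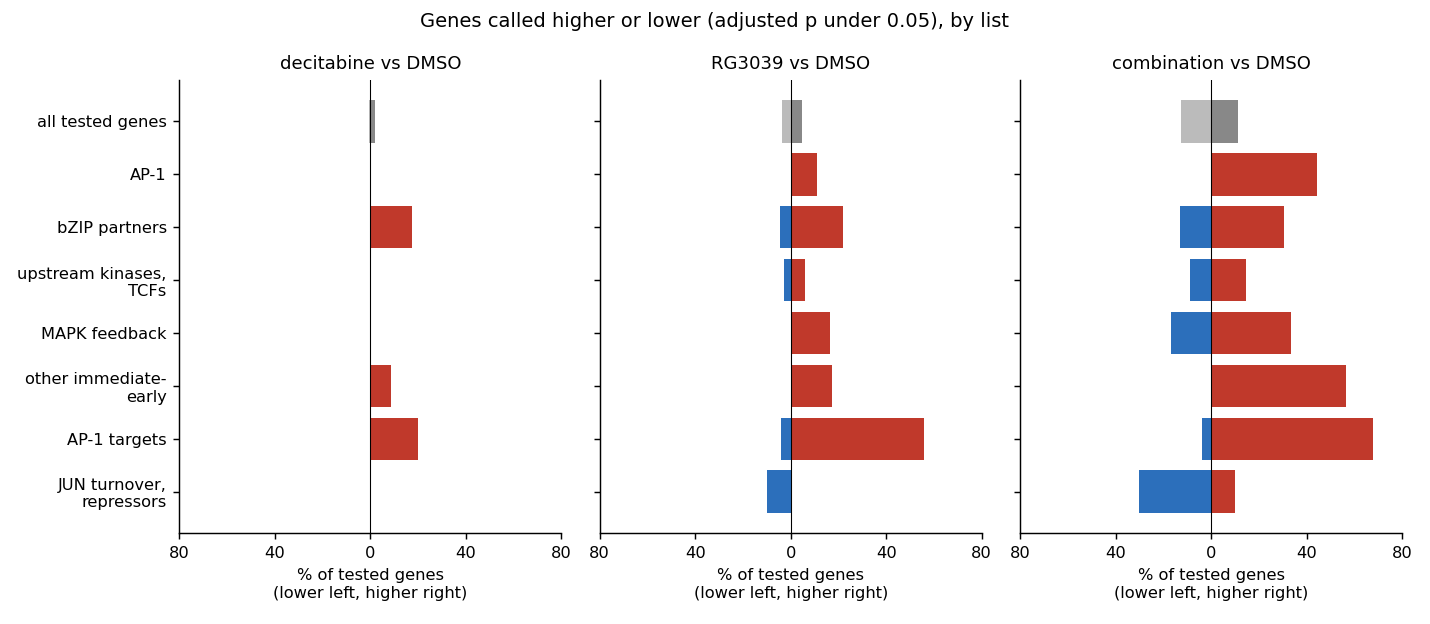
Share of tested genes called higher (right) or lower (left) at an adjusted p under 0.05 in each treatment against DMSO, for the AP-1 genes, 6 lists of related genes and all tested genes (grey). With the combination 44.4% of AP-1 genes, 56.5% of other immediate-early genes and 68.0% of AP-1 targets were called higher, beside 11.4% of all tested genes. The lists were chosen with earlier results of these data known, so the shares do not test the lists against all genes.

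The genes whose pattern was most like that of a called member were found by the highest Pearson correlation over the 8 libraries, which fall into 4 groups of 2. The search took genes with a symbol and a mean of at least 20. Y-linked genes and genes of X inactivation were left out, and opposite patterns were not searched. For JUN these were KRT80 (r = 0.996), AL645608.5 (r = 0.993) and EFHD2 (r = 0.988). For FOS they were AC010969.2 (r = 0.980), P2RX4 (r = 0.971) and MEIS3 (r = 0.962), and for FOSB AC114956.1, COA6-AS1 and SGMS2 (r = 0.982, 0.973 and 0.963). For ATF3 they were USP11 (r = 0.984), SERPINA1 (r = 0.983) and ANTXR2 (r = 0.978). No AP-1 gene was among the 3 most like another.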

How the data were processed

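Polyadenylated RNA of 8 libraries was sequenced from the 3′ end, per the labels. The authors deposited 60240 genes with a signal each, a normalised read count. The submitters' processing notes list DESeq2, featureCounts, limma, Salmon 1.2.1, STAR and the build hg38, and give no role for any. Of the low values in a library 74.4% to 80.8% were multiples of the worth of 1 read (tolerance 0.02), too few for a count test. That worth gave the estimated depth. The 95% intervals are from limma and rest on the spread between libraries.

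Values were taken as log2(value + 1) for 17534 genes with a mean of at least 10. One limma 3.58.1 model in R 4.3.3 with a mean per group and a mean-variance trend in eBayes (4 residual and 5.51 prior degrees of freedom) gave 7 two-sided contrasts, each adjusted by Benjamini-Hochberg over all genes, and an adjusted p under 0.05 was called. The script was tested on simulated data. Coordinates come from GENCODE 29 (GRCh38). Tables and plots were made in Python 3.11.15 (pandas 2.3.3, numpy 2.4.6, matplotlib 3.10.9).

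The members and lists were chosen with earlier results of these data known. Named were all 9 members and, of each other list, called genes among the 4 with the smallest p per comparison with DMSO. Further genes of 1 direction with a count of 5 or fewer were named after their values were seen. The values of 1 listed gene are not reported here. Alternatives were scaling by trimmed means of log ratios (TMM), pseudocounts of 0.5 and 5, a minimum mean of 1, no filter, no trend, robust eBayes, only the groups compared, a replicate block and leaving out each library.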

Additional observations from a re-analysis of the deposited data

How the results depend on the processing

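Directions of the AP-1 changes were the same in 8 settings that fitted all 8 libraries and in the one with only the groups compared, which has no interaction. The number of AP-1 genes called with RG3039 against DMSO went from 1 to 0 without the trend and to 0 with only the groups compared, and for the combination against decitabine from 2 to 0 without the trend. When each library was left out it ran from 0 to 1 and from 0 to 2, and from 1 to 4 for the combination against DMSO. The replicate numbers in the labels state no shared culture or day, and differences between replicates 1 and 2 correlated at -0.08 to 0.16 between groups. With the replicate block no AP-1 call changed, while the combination against RG3039 had 688 called genes in place of 399.

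The number of called genes over all tested genes moved more. With decitabine against DMSO it was 376, and 225 with no filter, 210 without the trend, 105 with only the groups compared and 79 to 495 without a library. With RG3039 it was 1424, and 718 without the trend, 481 with only the groups compared and 496 to 1263 without a library. For the combination it was 4221, and 2133 to 4075 without a library. For the combination against decitabine it was 1286, and 432 without the trend and 305 to 1391 without a library. For the combination against RG3039 it was 399, and 213 with no filter, 147 without the trend and 21 to 454 without a library. For decitabine against RG3039 it was 806, and 427 without the trend, 408 with only the groups compared and 283 to 887 without a library. For the interaction it was 0, and 0 to 2 without a library. The cause was not tested.

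Of 63 AP-1 changes 17 took the other sign when some library was left out, none of them called. Without a library, decitabine against DMSO ranged from -1.08 to 0.39 for FOS, -0.15 to 0.12 for FOSL2 and -0.49 to 0.020 for BATF. RG3039 against DMSO ranged from -0.036 to 1.44 for FOS, -0.18 to 0.058 for FOSL2 and -0.053 to 0.84 for ATF3, and the combination against DMSO from -0.16 to 0.16 for JUNB. The combination against RG3039 ranged from -0.22 to 0.77 for FOSB, -0.10 to 0.45 for FOSL1, -0.0031 to 0.053 for JUND and -0.80 to 0.11 for BATF. Decitabine against RG3039 ranged from -0.088 to 0.18 for FOSL2 and -0.0024 to 0.90 for BATF. The interaction ranged from -0.78 to 0.21 for FOSB, -0.23 to 0.40 for JUN, -0.32 to 0.092 for JUNB and -0.56 to 0.34 for BATF. With a library left out, its group holds 1 library, and the spread comes from the rest.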
